A study of Mus musculus with 24 samples.

Results

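Bile duct epithelium makes mucus, and 9 genes of its mucus layer are described here: the mucins Muc1, Muc4, Muc5b, Muc13 and Muc20, the trefoil factors Tff2 and Tff3, the glycosyltransferase gene Gcnt3 and the folding factor gene Agr2. They were chosen by name, and all 9 were found among the 49315 genes of each count table. Mucins are large proteins that carry dense sugar chains on serine and threonine. Membrane mucins such as Muc1, Muc4, Muc13 and Muc20 stay anchored on the cell surface, whereas Muc5b is secreted and forms a gel. Trefoil factors are small secreted peptides found with mucins and known for their part in repair of epithelium. Gcnt3 branches the sugar chains, and Agr2 is a protein of the endoplasmic reticulum that secretory cells need to fold gel-forming mucins. In the liver, the large bile ducts and their glands are the main sites of mucin and trefoil factor synthesis.

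RNA of intrahepatic cholangiocytes, the epithelial cells that line the bile ducts in the liver, was sequenced in 24 libraries of 8 groups, 3 per group. In each sex the groups were dnTGFB mice given secretin, untreated dnTGFB mice, wild-type (WT) mice given secretin and untreated WT mice. The dnTGFB strain has a transgene for a dominant-negative form of the type II TGF-β receptor, and these mice develop an autoimmune bile duct disease used as a model of primary biliary cholangitis. The labels do not name the promoter of the transgene; the widely used strain expresses it in T cells, from a Cd4 promoter. Secretin, a gut hormone that makes bile ducts secrete bicarbonate, was given by intraperitoneal osmotic minipump at 4 µg/kg/day for 8 weeks, starting at 32 weeks of age. Mice given secretin were therefore 40 weeks old and untreated WT mice 32 weeks old, so a comparison of WT secretin with WT also holds 8 weeks of age. For dnTGFB mice without secretin no age was found in the labels. Cells were isolated by antibody on magnetic beads, cells of 6 to 8 mice were pooled per group, and RNA of the pool was sequenced 3 times. Each group is thus 1 pool of mice, and every p-value below reflects the spread among repeat libraries, not among mice.

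Some libraries stood apart from their group. Total counts lay between 15225605 and 30203330 in 11 of the 12 male libraries and were 1429218 in male dnTGFB library 3, and female totals ran from 6483182 to 104003184. After thinning to equal depth, 10 of 12 male and 6 of 12 female libraries resembled a library of their own group most. The exceptions in males were dnTGFB library 3, with a sum of 16226 CPM (counts scaled to the library total) for 10 heart muscle markers against at most 975 CPM in the other male libraries, and WT library 1, with 42.75% mitochondrial counts against 9.73% and 9.75% in the other WT males. In females, dnTGFB libraries 1 and 2 and WT secretin libraries 2 and 3 held 54035 to 62067 CPM of heart muscle markers. Female dnTGFB secretin library 1 and WT library 2 differed from each other by a chi-square of 1.16 per gene, where 1 is the noise of repeat sequencing, and were both rich in stratified squamous markers (3744 and 3775 CPM). Female dnTGFB secretin library 3 and WT secretin library 1 differed by 1.42 per gene. Both values are as low as those between repeat libraries of one male group, and whether each pair is a single sample under both group labels cannot be told apart from the files. Other libraries differed far more from their own group, although each group is described as 1 pool. The nearest library of the own group lay at 40 per gene for male WT 1 and 78.42 for male dnTGFB 3. In females it lay at 62.68 for WT secretin 1, 47.46 for dnTGFB 3 and 28.82 for dnTGFB secretin 1. The cause was not tested. The 12 bile duct markers, which check the labelled cell type, summed to 6541 to 6620 CPM in male dnTGFB secretin libraries, 611 to 802 CPM in male dnTGFB, 2886 to 2940 CPM in male WT secretin and 1563 to 3985 CPM in male WT. In females these sums ran from 103 to 5877 CPM.

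Per unit of gene length, Muc1 was the most abundant of the 9 genes. In TPM, which scales counts by gene length and library, its level ranged from 2.15 to 260 with a median of 78.3 over the 24 libraries, and it ranked above the other 8 genes in 21 of them. Tff2 followed with a median of 44.9 TPM and Tff3 with 19.9 TPM. Tff3 ranked above Muc1 and Tff2 only in male dnTGFB libraries 1 and 2 and male WT library 1. The other membrane mucins were far lower, with medians of 1.64 TPM for Muc13, 1.62 TPM for Muc4 and 0.672 TPM for Muc20. Agr2 had a median of 1.2 TPM and Gcnt3 of 1.1 TPM, and the ranges of Muc13, Muc4, Agr2 and Gcnt3 over the libraries overlapped widely. Muc5b was close to absent, with a median of 0.007 TPM and a highest level of 0.266 TPM, in female WT library 2.

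In male libraries, 4 of the 9 genes moved together: Muc1, Tff2, Gcnt3 and Agr2 all rose in dnTGFB mice given secretin, both against untreated dnTGFB mice and against WT mice given secretin. Muc4, Muc13, Muc20 and Tff3 passed the test in no male comparison of the main fit, which scaled all 12 libraries by TMM. Muc5b had too few counts to be tested. A call is an adjusted p under 0.05 in edgeR's quasi-likelihood test across 18777 genes. In dnTGFB secretin against dnTGFB libraries, 4 of 8 tested members were called, all higher, beside 22.6% of all genes called and 10.1% called higher. Against WT secretin the same 4 were called higher, beside 12.9% of all genes (5.75% higher and 7.19% lower). In dnTGFB against WT libraries, Muc1, Tff2 and Agr2 were called lower, beside 17% of all genes (8.55% higher and 8.46% lower). WT secretin libraries differed from WT libraries in Tff2 alone, which was lower, beside 6.22% of all genes (2.67% lower). These comparisons share libraries, so they are not independent of each other. In RNA from pooled bulk cells, fewer cells of a type and less RNA per cell cannot be told apart.

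**Figure D1:**
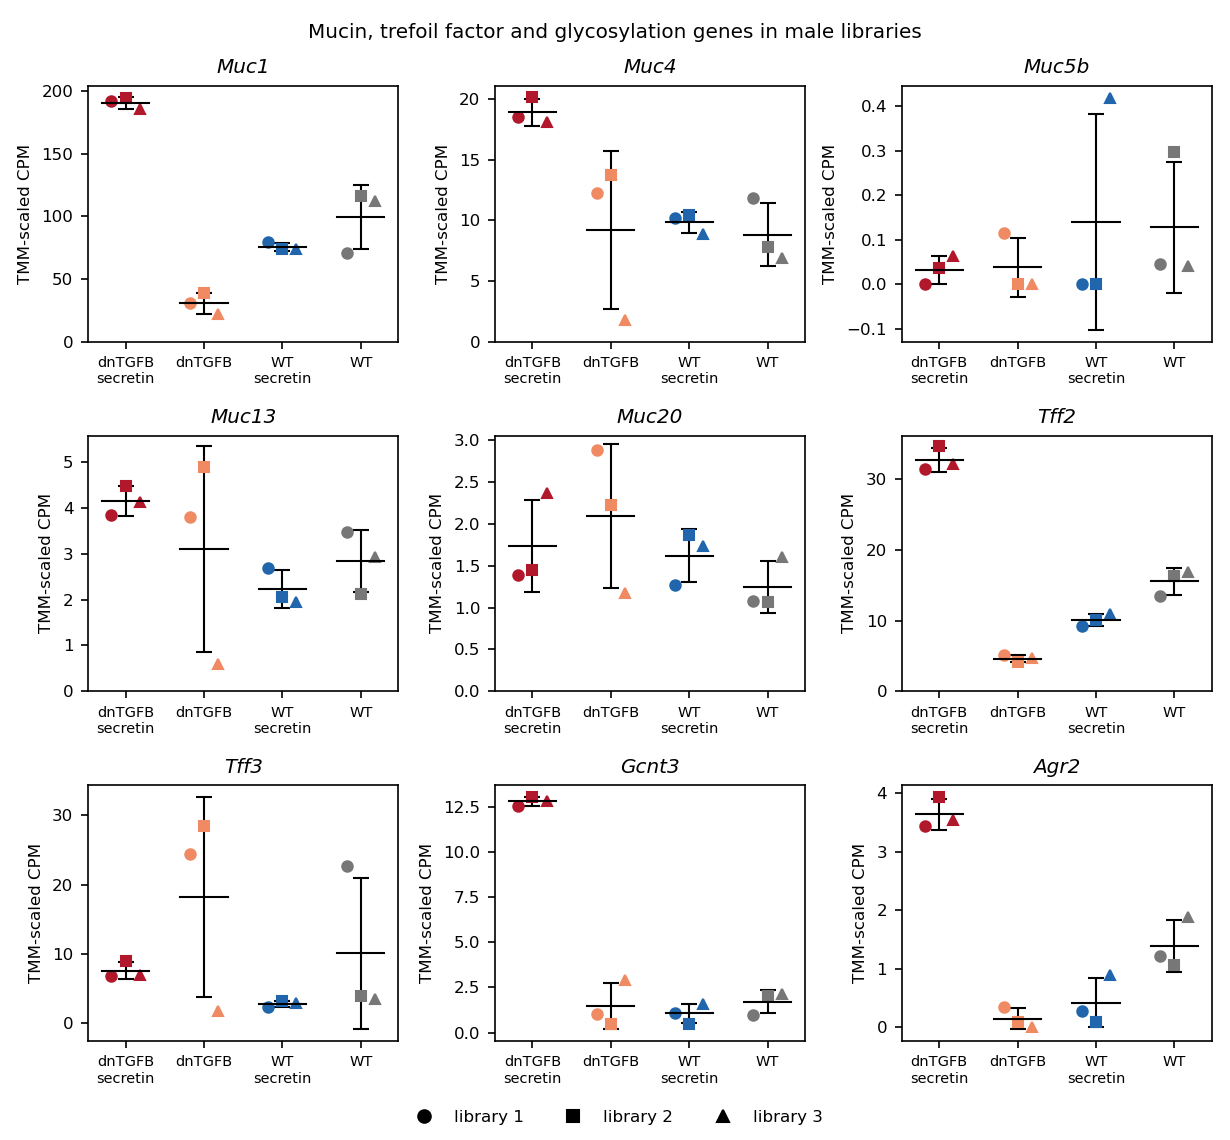
TMM-scaled CPM of the 9 genes in each male library (points, shaped by library number), by group from left to right; bars are means and whiskers SD, n = 3. Muc1, Tff2, Gcnt3 and Agr2 are highest in the 3 dnTGFB secretin libraries, while Tff3 is highest in dnTGFB libraries 1 and 2 and WT library 1.

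Muc1, a membrane mucin of most secretory epithelia and the shortest of the mucin transcripts counted here, lies on chromosome 3 (GRCm38 chr3:89229057-89233381, plus strand). In TMM-scaled CPM, the scale used for all levels of a single gene below, Muc1 measured 192, 195 and 185 in the male dnTGFB secretin libraries and 30.9, 38.6 and 21.7 in the dnTGFB libraries. It measured 79.3, 73.7 and 73.7 CPM in WT secretin libraries and 70.4, 116 and 112 CPM in WT libraries. The dnTGFB secretin libraries were above all other male libraries and the dnTGFB libraries below all others, while WT secretin and WT overlapped. The log2 fold change was 2.62 ± 0.24 (SE) in dnTGFB secretin against dnTGFB (edgeR adjusted p = 0.000117) and 1.33 ± 0.23 against WT secretin (edgeR adjusted p = 0.00366). It was -1.69 ± 0.23 in dnTGFB against WT (edgeR adjusted p = 0.00385) and -0.40 ± 0.22 in WT secretin against WT (edgeR adjusted p = 0.346).

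The 250 bases before the RefSeq start of 3 of the genes are printed to set a gene that moved in males and is abundant (Muc1) beside one that moved and is scarce (Agr2) and a membrane mucin that did not pass the test (Muc4). Capitals mark matches to 3 of the 5 motifs searched on both strands, which were the TATA box TATAAA, the GC box GGGCGG, the FOXA core TGTTTAC, the SMAD element CAGACA and the ETS core GGAAGT. The sequences are from RefSeq on GRCm38.p6, 5′ to 3′ on the gene's strand, which is plus for all 3, and are of chr3:89228806-89229055 for Muc1, chr12:35992675-35992924 for Agr2 and chr16:32735636-32735885 for Muc4.
Muc1: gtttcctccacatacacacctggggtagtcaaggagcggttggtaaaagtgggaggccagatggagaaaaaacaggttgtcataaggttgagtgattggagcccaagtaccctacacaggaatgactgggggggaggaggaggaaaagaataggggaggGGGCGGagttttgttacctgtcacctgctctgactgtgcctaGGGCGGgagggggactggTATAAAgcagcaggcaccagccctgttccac
Agr2: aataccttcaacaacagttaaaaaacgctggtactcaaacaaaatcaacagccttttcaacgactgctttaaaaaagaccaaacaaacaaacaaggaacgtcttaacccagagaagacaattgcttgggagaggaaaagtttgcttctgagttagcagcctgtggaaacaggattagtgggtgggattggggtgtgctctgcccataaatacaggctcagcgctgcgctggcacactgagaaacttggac
Muc4: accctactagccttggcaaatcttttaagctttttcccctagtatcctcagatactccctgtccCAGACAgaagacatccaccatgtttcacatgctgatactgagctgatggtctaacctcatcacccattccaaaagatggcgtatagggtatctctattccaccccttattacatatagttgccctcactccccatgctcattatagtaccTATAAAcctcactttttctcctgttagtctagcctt
The Muc1 sequence holds GC boxes starting 91 and 49 bases before the start and a TATA box at 31 bases. The Muc4 sequence holds a SMAD element at 186 bases and a TATA box at 36 bases, and the Agr2 sequence holds none of the 5 motifs. Of 32851 mouse promoter windows of this length, 12.4% hold the TATA letters, 32.7% the GC box, 3.17% the FOXA core, 17.1% the SMAD element and 19.7% the ETS core, so single matches are common. RefSeq windows were matched for 5 of the 9 genes, and a FOXA core on the opposite strand of the Muc20 window was the only other match.

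The other membrane mucins behaved differently from Muc1 in males. Muc4, a very large membrane mucin with regions like epidermal growth factor, lies at chr16:32735886-32782391 and overlaps Muc20 (chr16:32777419-32797435) on the opposite strand. Strand use in counting is not stated, so reads of the overlap cannot be told apart. Muc4 measured 18.5, 20.2 and 18.1 CPM in dnTGFB secretin libraries, 12.2, 13.7 and 1.76 CPM in dnTGFB, 10.2, 10.5 and 8.87 CPM in WT secretin, and 11.8, 7.79 and 6.89 CPM in WT. The dnTGFB secretin libraries were above all others, yet no difference passed the test, with a log2 fold change of 0.89 ± 0.41 (SE) against dnTGFB (edgeR adjusted p = 0.138) and 0.94 ± 0.40 against WT secretin (edgeR adjusted p = 0.151). Separation of the libraries without overlap was common in these comparisons, at 41.1% of all genes against dnTGFB and 62.5% against WT secretin. The spread of Muc4 in the dnTGFB group came with library 3, which held 3 reads of it.

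Muc13, a membrane mucin of gut epithelium (chr16:33794037-33819934), measured 3.85, 4.48 and 4.14 CPM in dnTGFB secretin libraries, 3.81, 4.91 and 0.587 CPM in dnTGFB, 2.7, 2.06 and 1.94 CPM in WT secretin and 3.47, 2.13 and 2.94 CPM in WT. The dnTGFB secretin libraries overlapped with dnTGFB and lay above WT secretin, with a log2 fold change of 0.89 ± 0.40 (SE) there (edgeR adjusted p = 0.175). An antisense gene, Gm15657, overlaps Muc13, so its counts carry the same doubt as those of Muc4. Muc20, a membrane mucin best known from kidney, stayed between 1.06 and 2.89 CPM in all 12 male libraries, and its groups overlapped in each of the 4 comparisons.

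The secreted mucin Muc5b (chr7:141839070-141873084), a main gel-forming mucin of airways and gallbladder, gave 0 to 8 reads per male library. It measured at most 0.42 CPM in any male library. At this depth no difference in Muc5b between male groups was detectable.

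The trefoil factors parted from each other. Tff2 and Tff3 are neighbours on chromosome 17 (chr17:31141049-31144282 and chr17:31125306-31129646, both on the minus strand). Tff2, known in the stomach as the trefoil factor of mucous neck cells, measured 31.4, 34.6 and 32.1 CPM in male dnTGFB secretin libraries, 5.08, 4.08 and 4.7 CPM in dnTGFB, 9.24, 10.1 and 10.9 CPM in WT secretin, and 13.4, 16.4 and 16.9 CPM in WT. No library of one group overlapped with another group, including the library of 1429218 counts. Among all genes, 32.7% separated in dnTGFB against WT and 43.4% in WT secretin against WT. Tff2 had a log2 fold change of 2.83 ± 0.17 (SE) in dnTGFB secretin against dnTGFB (edgeR adjusted p = 1.3e-05), 1.70 ± 0.15 against WT secretin (edgeR adjusted p = 0.000107) and -1.76 ± 0.17 in dnTGFB against WT (edgeR adjusted p = 0.000992). It also fell by 0.63 ± 0.15 on the log2 scale in WT secretin against WT (edgeR adjusted p = 0.032). That last call was lost on leaving out any of 5 of the 6 libraries (adjusted p 0.0856 to 0.149) and kept only without WT library 1 (adjusted p = 0.024).

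Tff3, the trefoil factor of intestinal goblet cells, split the libraries otherwise. It measured 6.76, 9.04 and 7.01 CPM in male dnTGFB secretin libraries, 24.5, 28.5 and 1.76 CPM in dnTGFB, 2.3, 3.19 and 2.89 CPM in WT secretin, and 22.7, 4 and 3.55 CPM in WT. The 3 libraries over 20 CPM, dnTGFB 1 and 2 and WT 1, were also those with the highest mitochondrial shares in males, at 55.07%, 55.03% and 42.75% against 5.31% to 19.46% in the other 9. The part of this in the Tff3 level was not tested. In the main fit with all libraries no Tff3 difference passed the test. A fit chosen after seeing the data left out the stand-apart dnTGFB library 3 and WT library 1. For Tff3 these also lay farthest from their groups, so its small p-values come in part from that choice. Its log2 fold change was then 2.81 in dnTGFB against WT (edgeR adjusted p = 1.36e-10) and -1.80 in dnTGFB secretin against dnTGFB (edgeR adjusted p = 1.28e-08). In dnTGFB secretin against WT secretin it was 1.45 (edgeR adjusted p = 4.23e-07). The library nearest to WT library 1 was dnTGFB library 2, which was kept (chi-square 7.3 per gene, against 40 to its own group).

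The genes of mucin processing, Gcnt3 and Agr2, had the largest fold changes of the 8 tested members in the 2 male comparisons of dnTGFB secretin. Gcnt3 (chr9:70031496-70038088), whose enzyme makes the core 2 and core 4 branches of mucin sugar chains, measured 12.6, 13.1 and 12.9 CPM in male dnTGFB secretin libraries. It measured 1.04, 0.463 and 2.94 CPM in dnTGFB, 1.11, 0.491 and 1.57 CPM in WT secretin, and 0.985, 2 and 2.14 CPM in WT. The dnTGFB secretin libraries lay well above all others, which overlapped among themselves. The log2 fold change was 3.60 ± 0.60 (SE) against dnTGFB (edgeR adjusted p = 0.00347) and 3.59 ± 0.52 against WT secretin (edgeR adjusted p = 0.00151).

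Agr2 (chr12:35992907-36004087), a disulfide isomerase family gene, measured 3.45, 3.94 and 3.54 CPM in male dnTGFB secretin libraries and 0.346, 0.0926 and 0 CPM in dnTGFB. The dnTGFB values rest on 3, 1 and 0 reads, and the count of 0 in library 3 allows up to 2.10 CPM of that library's total. It measured 0.278, 0.0981 and 0.892 CPM in WT secretin and 1.22, 1.06 and 1.89 CPM in WT. The log2 fold change was 4.23 ± 0.81 (SE) in dnTGFB secretin against dnTGFB (edgeR adjusted p = 0.00757), 3.12 ± 0.61 against WT secretin (edgeR adjusted p = 0.00835) and -2.85 ± 0.84 in dnTGFB against WT (edgeR adjusted p = 0.0397). The last call was lost without WT library 2, WT library 3 or dnTGFB library 2 (adjusted p 0.0743 to 0.117), and that against WT secretin reached an adjusted p of 0.0505 without WT secretin library 1.

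**Figure D2:**
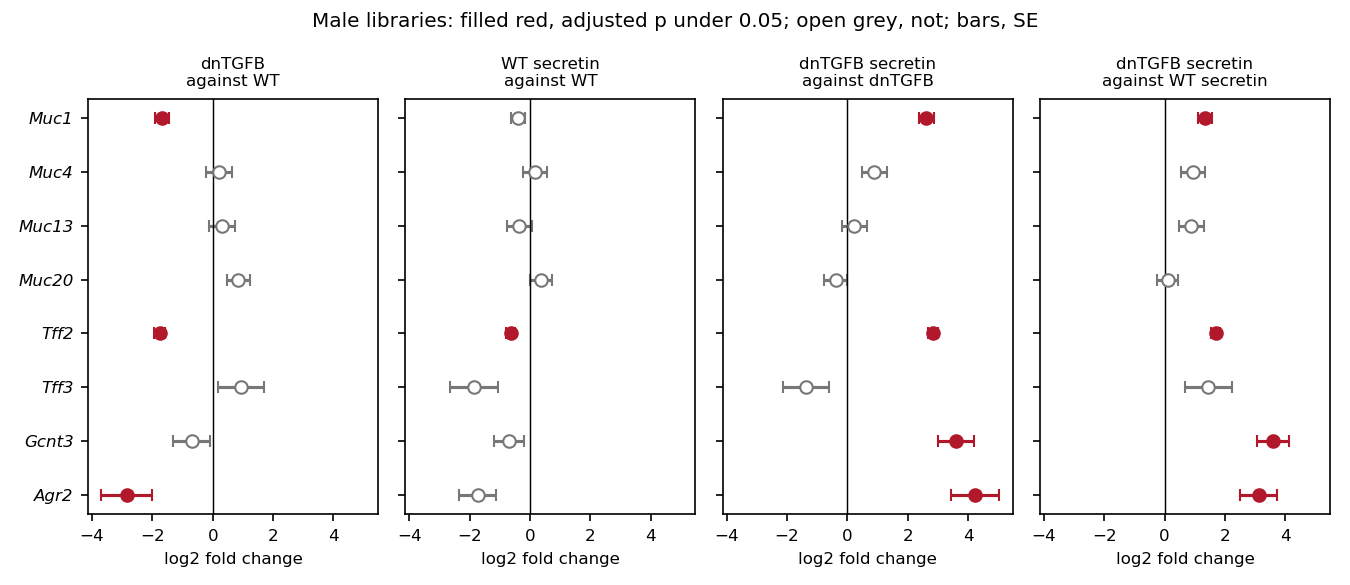
Log2 fold change (x axis) of the 8 genes tested in males, with SE as whiskers, in 4 comparisons; filled red points passed an edgeR adjusted p of 0.05 and open grey points did not. Muc1, Tff2, Gcnt3 and Agr2 lie between 2.62 and 4.23 in dnTGFB secretin against dnTGFB, while Tff3 and Muc20 lie below 0 there.

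The change with secretin differed between genotypes for the same 4 genes in males. Secretin and age cannot be told apart in it, as untreated WT mice were 8 weeks younger and untreated dnTGFB mice had no stated age. The interaction, which is the log2 change with secretin in dnTGFB minus that in WT, was 3.02 ± 0.32 for Muc1, 3.46 ± 0.23 for Tff2, 4.30 ± 0.78 for Gcnt3 and 5.97 ± 1.02 for Agr2 (SE; edgeR adjusted p 3.81e-05 to 0.00673). It was called in 15.6% of all genes, positive in 8.1% and negative in 7.51%. These 4 calls held on leaving out any of the 12 male libraries, with Agr2 between 5.45 and 7.18. Scaled to the bile duct markers, described below, 86% of all genes were called in this interaction. That scaling shifted the median change of all genes in the comparisons behind it, as given below. Of the 4 calls, 3 were lost, with Muc1 at 0.31 (edgeR adjusted p = 0.23), Tff2 at 0.79 (edgeR adjusted p = 0.055) and Gcnt3 at 1.46 (edgeR adjusted p = 0.142). Agr2 was called at 3.44 (edgeR adjusted p = 0.0113). Muc4, Muc13 and Muc20 were called negative, at -1.70, -1.91 and -3.35 (edgeR adjusted p 0.000221 to 0.0244).

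Leaving out the stand-apart male libraries dnTGFB 3 and WT 1 kept the calls above and added others. Without them, 7 of 8 members were called in dnTGFB against WT, with Muc4, Muc13 and Tff3 higher and Muc1, Tff2, Gcnt3 and Agr2 lower. In WT secretin against WT, 5 members were called, with Muc4 higher and Muc1, Tff2, Gcnt3 and Agr2 lower, and the change of Muc1 was -0.60 on the log2 scale (edgeR adjusted p = 5.25e-08). Against WT secretin, 7 members were called higher in dnTGFB secretin, including Muc4 at 0.94, Muc13 at 0.89 and Tff3 at 1.45 on the log2 scale. Far more of all genes were called in that fit as well, at 46.6% in dnTGFB secretin against dnTGFB, 50.9% in dnTGFB secretin against WT secretin, 47.4% in dnTGFB against WT and 40.5% in WT secretin against WT. The Tff3 interaction was then -1.36 (edgeR adjusted p = 0.00031), against 0.49 ± 1.08 with all libraries. In that fit 48.9% of all genes were called in the interaction.

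The bile duct markers moved with these genes. In male dnTGFB secretin against dnTGFB libraries, 11 of 12 bile duct markers were called higher (median log2 fold change 2.16, against -0.05 over all genes), and in dnTGFB against WT libraries 9 of 12 were called lower (median -1.28). Krt19, a keratin of bile duct cells, measured 361 ± 8.75 CPM in dnTGFB secretin and 75.7 ± 26.5 CPM in dnTGFB libraries, and 180 ± 11 CPM in WT secretin and 229 ± 64.4 CPM in WT libraries (SD, n = 3 each). Epcam rose by 2.61 and Sox9 by 2.09 on the log2 scale in dnTGFB secretin against dnTGFB (edgeR adjusted p = 0.000136 and 0.000178). Read counts of each member were therefore also set against the summed reads of the 12 markers. Most of that sum came from 1 marker, Spp1, at 3381, 3301 and 3325 CPM in male dnTGFB secretin libraries. No other marker exceeded 369 CPM there, the highest being Krt19. Values set against the markers thus follow Spp1 closely, and a sum without it was not tested.

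Relative to bile duct markers, Muc1 varied little among males. It gave 36, 37 and 35.5 reads per 1000 marker reads in male dnTGFB secretin libraries, 28.8, 34.9 and 32.3 in dnTGFB, 31.3, 28.4 and 28.6 in WT secretin, and 31.8, 33.3 and 31.8 in WT, and its range over all 24 libraries was 20.9 to 46.6. Tff2 ranged from 2.85 to 6.98 over all 24 libraries. Gcnt3 gave 2.36, 2.48 and 2.46 in male dnTGFB secretin libraries, against 0.438, 0.189 and 0.612 in WT secretin. In dnTGFB libraries Gcnt3 gave 0.967, 0.419 and 4.36, the last of them above the dnTGFB secretin libraries and resting on 5 reads. Tff3 gave 22.8 and 25.8 in dnTGFB libraries 1 and 2 and 10.3 in WT library 1, and at most 2.62 in every other male library. Muc4 and Muc13 were likewise highest in male dnTGFB libraries 1 and 2, at 11.4 and 12.4 for Muc4 and 3.55 and 4.44 for Muc13.

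**Figure D3:**
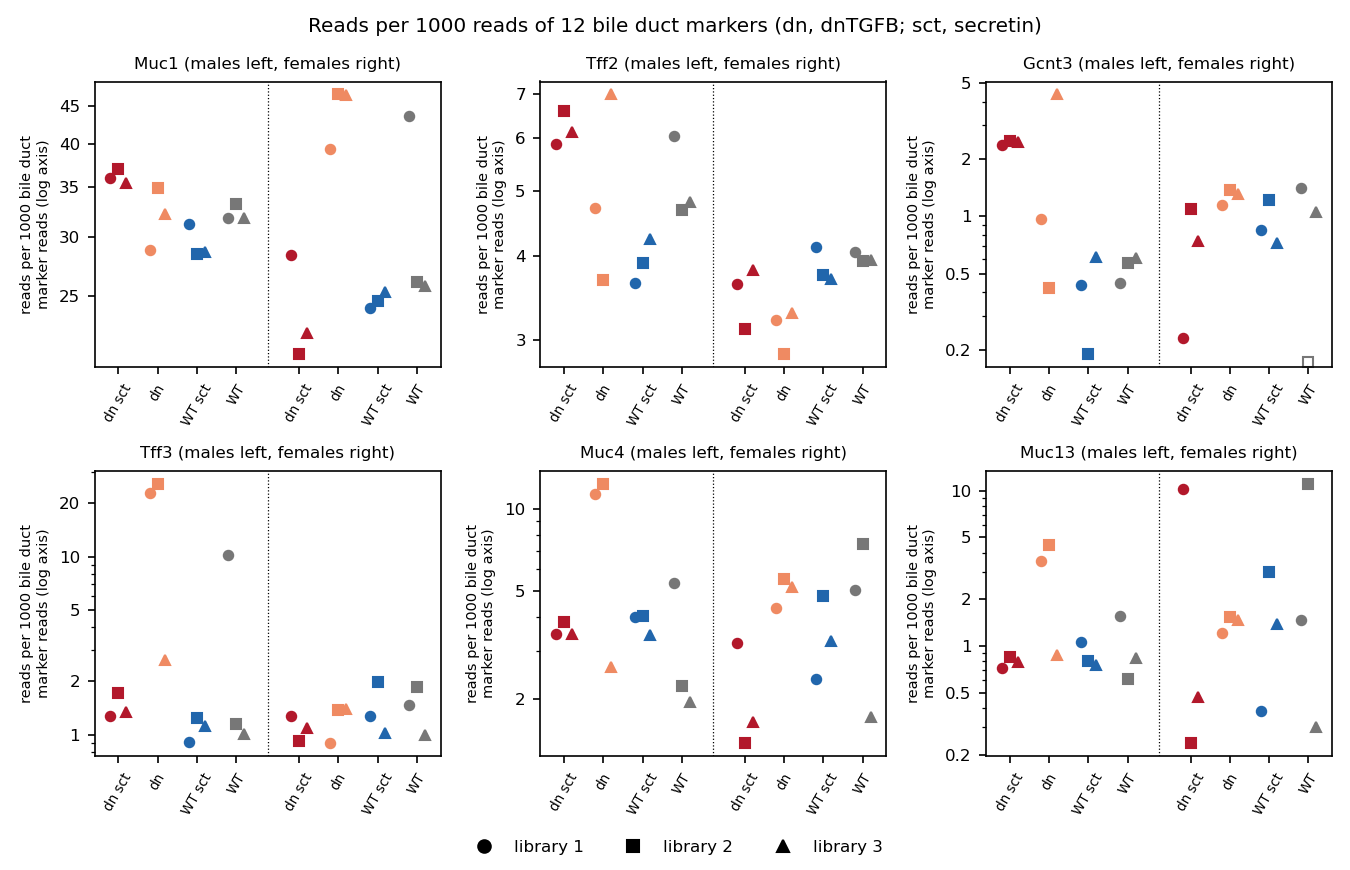
Reads of 6 genes per 1000 reads of the 12 bile duct markers (log axis) in each library, males left and females right of the dotted line, groups in the order dnTGFB secretin, dnTGFB, WT secretin and WT; an open symbol on the axis is a count of 0. Muc1 stays between 20.9 and 46.6, while Tff3 reaches 22.8 and 25.8 in male dnTGFB libraries 1 and 2.

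A fit scaled to the bile duct markers, an alternative chosen after seeing the data, moved the median log2 change of all genes in males to -2.53 in dnTGFB secretin against dnTGFB, -1.05 in dnTGFB secretin against WT secretin, 1.64 in dnTGFB against WT and 0.20 in WT secretin against WT. On that scale Muc1 changed by 0.18 in dnTGFB secretin against dnTGFB (edgeR adjusted p = 0.328), 0.30 against WT secretin (edgeR adjusted p = 0.143) and -0.01 in dnTGFB against WT (edgeR adjusted p = 0.94), and passed the test in none of them. Gcnt3 and Agr2 were called higher in dnTGFB secretin against WT secretin, at 2.56 (edgeR adjusted p = 0.00457) and 2.08 (edgeR adjusted p = 0.0191), and Tff2 at 0.66 (edgeR adjusted p = 0.0359). Against dnTGFB, the change of Tff2 was 0.39 (edgeR adjusted p = 0.175), that of Gcnt3 1.07 (edgeR adjusted p = 0.155) and that of Agr2 1.94 (edgeR adjusted p = 0.054). In dnTGFB against WT, Tff2 was at -0.13 (edgeR adjusted p = 0.658) and Agr2 at -1.36 (edgeR adjusted p = 0.176), so neither call held there. As 90.8% of all genes were called in dnTGFB secretin against dnTGFB on that scale and 80.8% in dnTGFB against WT, values there are best read beside those medians. Muc4, Muc13, Muc20 and Tff3 were lower in dnTGFB secretin against dnTGFB, at -1.42, -2.10, -2.75 and -3.66 (edgeR adjusted p 6e-05 to 0.0106), and higher in dnTGFB against WT, at 1.61, 1.76, 2.42 and 2.16 (edgeR adjusted p 0.000545 to 0.0321).

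Other genes of mucus were followed through lists of other mucins, sugar chain enzymes and goblet cell genes, 63 genes in all with Tff1. In male dnTGFB secretin against dnTGFB libraries, 16 of the 51 tested genes were called higher and 4 lower, beside 22.6% of all genes called. Against WT secretin, 8 were called higher and 3 lower, beside 12.9%. In dnTGFB against WT, 4 were called higher and 10 lower, beside 17%, and in WT secretin against WT 1 in each direction, beside 6.22%. Without the stand-apart libraries these counts were 22 and 9, 15 and 12, 9 and 21, and 8 and 9, each time higher and then lower, beside 46.6%, 50.9%, 47.4% and 40.5% of all genes called. Scaled to the bile duct markers, 1 was higher and 35 lower in dnTGFB secretin against dnTGFB, beside 90.8% of all genes called, and 4 were higher and 26 lower against WT secretin, beside 54.6%.

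Among the other mucins, 4 of 8 tested were called higher in dnTGFB secretin against dnTGFB and none lower (median log2 fold change 0.70). Muc3, a membrane mucin of gut and bile duct, measured 85.6 ± 2.7 CPM in dnTGFB secretin and 9.2 ± 2.38 CPM in dnTGFB (SD, n = 3 each), a log2 fold change of 3.15 ± 0.22 (SE), which was 0.75 scaled to the bile duct markers (edgeR adjusted p = 0.00539). Muc3a moved alike at 2.76 ± 0.35, and reads of these related mucins may be shared between them. Muc6, a gel-forming mucin of pyloric and biliary glands, measured 17.7 ± 0.691 CPM in dnTGFB secretin and 1.42 ± 0.481 CPM in WT secretin (SD, n = 3 each), with a log2 fold change of 3.62 ± 0.48 (SE; edgeR adjusted p = 0.000942), and 2.59 scaled to the bile duct markers (edgeR adjusted p = 0.00181). Muc6 was also lower in WT secretin than in WT, where it measured 6.73 ± 0.89 CPM (SD, n = 3; log2 fold change -2.23, edgeR adjusted p = 0.018). Cd164, a sialomucin of many cell types, rose by 0.96 in dnTGFB secretin against dnTGFB but was lower there scaled to the bile duct markers (-1.49). Emcn, an endothelial sialomucin, fell by 0.88 in dnTGFB against WT but was higher there on that scale (0.73).

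Muc6 is also a marker of stomach, and 4 of 5 tested gastric mucosa markers were called higher in male dnTGFB secretin against dnTGFB. Their sum was 39.2 to 42.8 CPM in dnTGFB secretin, 2.84 to 7.7 CPM in dnTGFB, 6.45 to 8.8 CPM in WT secretin and 10.8 to 20.9 CPM in WT libraries. Muc6 itself measured 17.7, 18.4 and 17 CPM in dnTGFB secretin libraries and 8.08, 1.76 and 2.35 CPM in dnTGFB. Not all members of the list were present. The stomach surface gene Gkn1 had no read in any of the 24 libraries. Atp4b, of acid-secreting cells, stayed at or below 0.05 CPM in the 12 male libraries except 0.1 CPM in WT library 1. These 2 do not stand for the list, in which 4 markers were called higher. Pancreatic acinar markers were higher as well, with 7 of 9 called and a sum of 391 to 420 CPM against 34.5 to 48.3 CPM in dnTGFB, as were 8 of 8 macrophage markers, at 1002 to 1037 CPM against 142 to 169 CPM. Their part in the levels of the mucus genes was not tested.

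Of 14 tested genes of O-GalNAc initiation, the first step of mucin sugar chains, 3 were called higher in dnTGFB secretin against dnTGFB and 1 lower (median 0.27), a share close to the 22.6% of all genes called. Galnt3 measured 14.7 ± 0.246 CPM in dnTGFB secretin and 3.11 ± 1.19 CPM in dnTGFB (SD, n = 3 each), a log2 fold change of 2.12 ± 0.28 (SE), and Galnt12 and Galnt4 rose by 2.23 and 1.28, all 3 turning negative scaled to the bile duct markers (-0.25 for Galnt3, -0.10 for Galnt12 and -1.16 for Galnt4). In dnTGFB against WT, these 3 were lower, at -1.13, -1.88 and -0.72 on the log2 scale for Galnt3, Galnt12 and Galnt4, and 0.44, -0.34 and 0.88 on that scale. Of the 5 core synthesis genes, C1galt1, which makes core 1, rose by 0.79 (-1.61 scaled to the bile duct markers), and Gcnt1, the core 2 branching gene of leukocytes, fell by 0.99 in dnTGFB secretin against dnTGFB. Gcnt1 was also lower in dnTGFB secretin than in WT secretin (1.67 ± 0.0747 against 6.21 ± 0.656 CPM, SD, n = 3 each), the opposite direction to its relative Gcnt3.

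Of 13 tested genes that extend and cap the chains, 4 were called higher and 2 lower in dnTGFB secretin against dnTGFB (median 0.30). Fut2, the fucosyltransferase of secreted blood group antigens, measured 22.3 ± 1.34 CPM in dnTGFB secretin, 3.35 ± 2.22 CPM in dnTGFB and 9.06 ± 1.62 CPM in WT secretin (SD, n = 3 each). Gal3st2, a sulfotransferase, rose by 2.68 ± 0.54, and the sialyltransferase gene St6galnac6 fell by 1.66 ± 0.40 (SE). Of 10 tested genes of the goblet cell programme, 4 were called higher and none lower. Atp2c2, a calcium pump of the Golgi, rose by 2.63 ± 0.41, the secreted lectin gene Zg16 by 2.51 ± 0.42 and the transcription factor gene Creb3l1 by 0.72 ± 0.13 (SE), which was -1.76 scaled to the bile duct markers. Scaled to the bile duct markers, Fut2, Gal3st2, Atp2c2 and Zg16 changed by 0.14 to 0.25 in dnTGFB secretin against dnTGFB, and none of these 4 passed the test (edgeR adjusted p 0.511 to 0.817).

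By profile over the 24 libraries, Muc1 was most like Tspan8, Tm4sf4 and Cldn7. Likeness was measured as the root mean square difference of log2(CPM + 1) values, each gene centred on its mean, over 14574 other genes, and these 3 genes differed from Muc1 by 0.22, 0.24 and 0.26 while Muc1 itself varied by 1.36. Tff2 was most like Smim22, Sox9 and Onecut2, at 0.23, 0.29 and 0.30. Gcnt3 was most like Fam3b, Muc3a and Ptprh, at 0.40, 0.43 and 0.43, and Muc4 was most like Lsr, Ctse and Tgfbi, at 0.36, 0.36 and 0.42. Tff3 had no gene as near, with Ifi211, Soat2 and Gdf15 at 0.44 to 0.47, and Muc13 had Fam83c at 0.42 and Tspan1 at 0.44. For the scarce members the first genes were Pcbp2 at 0.19 from Muc5b, Grina at 0.33 from Muc20 and Rpl36a at 0.38 from Agr2, beside deviations of 0.45 for Muc5b, 0.54 for Muc20 and 0.68 for Agr2 themselves. Among the members themselves, Muc1 and Tff2 were closest, at 0.47, and Muc1 and Muc5b farthest apart, at 1.55.

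In females, no member was called in any of the 4 comparisons between 2 groups, and 0% of the 19882 genes tested were called in any of them. At an unadjusted p under 0.05, Muc5b passed in all 4 and Muc13 in both comparisons with WT secretin. The share of all genes at that threshold was not counted, so these passes cannot be set against it. The comparisons also share libraries, and the Muc5b reads came mostly from a pair of libraries described below. DESeq2 called 1 member, in WT secretin against WT, beside 13.2% of all genes. It called none in the other 3, beside 2.24% to 7.19% of all genes. The libraries within a group differed by more than the groups. Muc1 measured 20.6, 94.9 and 75.5 CPM in female dnTGFB secretin libraries, 59.2, 35.2 and 187 CPM in dnTGFB, 67.7, 3.87 and 7.95 CPM in WT secretin, and 130, 18.1 and 78.9 CPM in WT. Its lowest values were in the heart-muscle-rich WT secretin libraries 2 and 3 and in the squamous-rich libraries dnTGFB secretin 1 and WT 2. The log2 fold change was -0.56 ± 1.09 (SE) in dnTGFB secretin against dnTGFB (edgeR adjusted p = 0.784) and 0.31 ± 1.09 in dnTGFB against WT (edgeR adjusted p = 0.899).

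**Figure D4:**
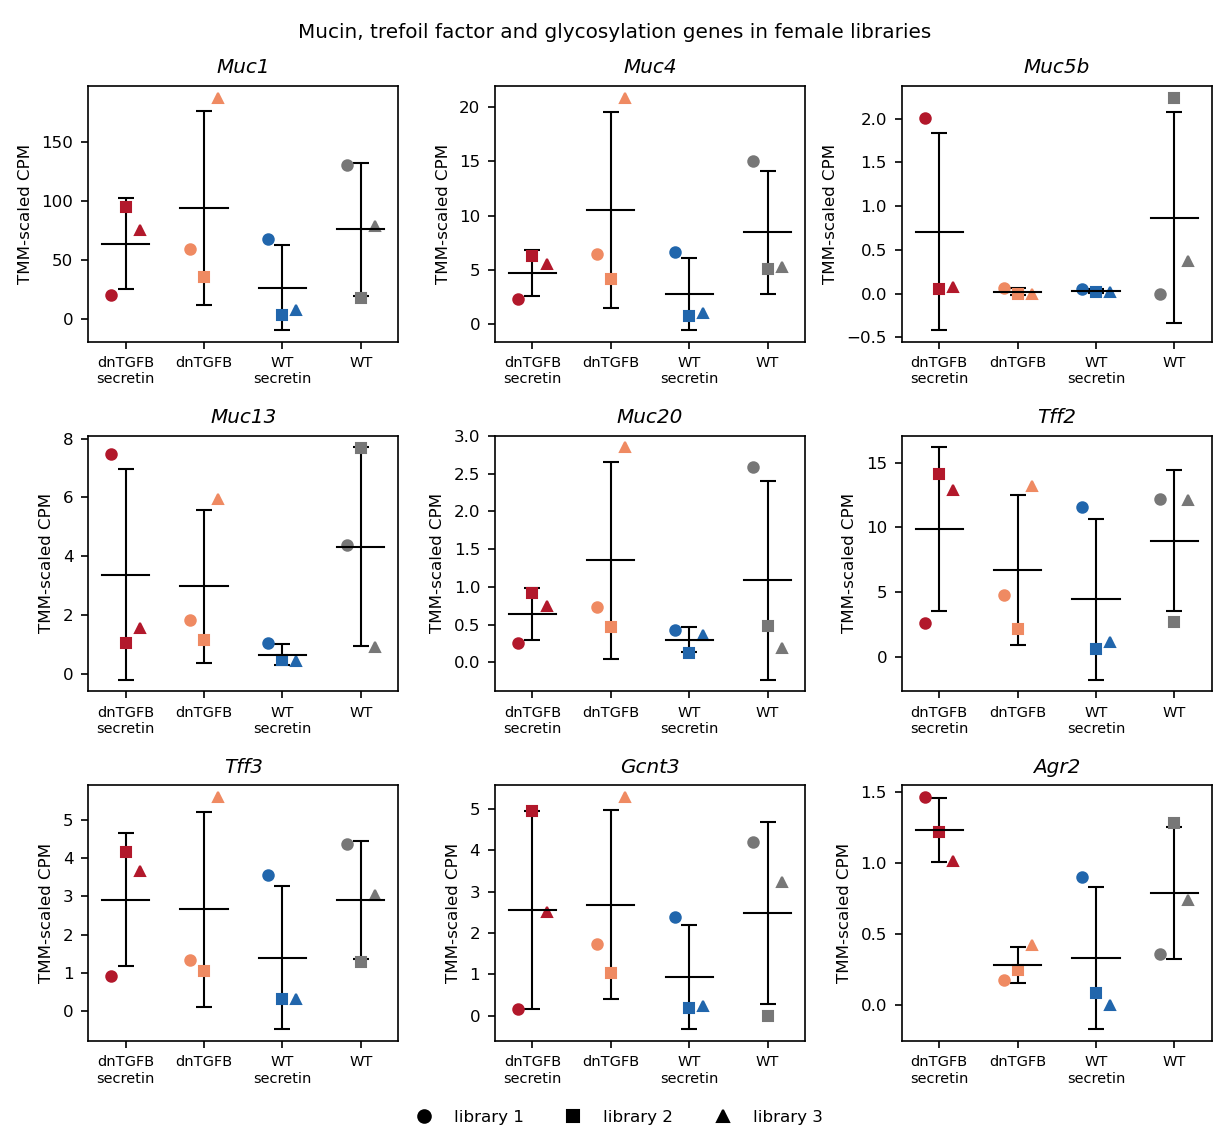
TMM-scaled CPM of the 9 genes in each female library (points, shaped by library number), by group from left to right; bars are means and whiskers SD, n = 3. Values within a group spread widely, from 3.87 to 67.7 for Muc1 in WT secretin, while Agr2 in dnTGFB secretin is among the tighter groups at 1.01 to 1.46.

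The other abundant members of females spread in the same way. Tff2 measured 2.64, 14.1 and 12.9 CPM in dnTGFB secretin libraries, 4.82, 2.15 and 13.2 CPM in dnTGFB, 11.6, 0.589 and 1.16 CPM in WT secretin, and 12.2, 2.72 and 12.1 CPM in WT. Tff3 ran from 0.309 to 5.6 CPM over the 12 female libraries and Gcnt3 from 0 to 5.29 CPM. Muc4 ran from 0.751 to 20.9 CPM and Muc20 from 0.118 to 2.85 CPM, both highest in dnTGFB library 3. Per 1000 bile duct marker reads, Muc1 was at 39.4 to 46.6 in the 3 dnTGFB libraries and 43.6 in WT library 1, and at 20.9 to 28.4 in the other 8. Scaled to those markers, the change of Muc1 in dnTGFB secretin against dnTGFB was -0.89 (edgeR adjusted p = 0.999). Leaving out WT secretin library 1, whose nearest library was dnTGFB secretin 3 (chi-square 1.42 per gene), gave 5 called members in WT secretin against WT, all lower, beside 25.7% of all genes called, and 4 in dnTGFB secretin against WT secretin, all higher, beside 24%. The WT secretin group then held only the 2 heart-muscle-rich libraries.

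On the CPM scale, Agr2 was the member whose female groups separated with secretin in dnTGFB mice. It measured 1.46, 1.22 and 1.01 CPM in dnTGFB secretin libraries, 0.18, 0.249 and 0.427 CPM in dnTGFB, 0.903, 0.0884 and 0 CPM in WT secretin, and 0.358, 1.28 and 0.738 CPM in WT. In CPM, the dnTGFB secretin libraries were all above the dnTGFB libraries, the same order as in males. The difference did not pass the test (log2 fold change 2.11 ± 1.15, edgeR adjusted p = 0.329). Among all genes, 17.6% separated without overlap in this comparison, with 8.52% higher and 9.12% lower in dnTGFB secretin. In the other female comparisons, 22.9% separated in dnTGFB against WT, and 5.8% were higher without overlap in dnTGFB secretin against WT secretin, Agr2 and Muc13 among them. Per 1000 bile duct marker reads, Agr2 overlapped, at 2.02, 0.269 and 0.3 in dnTGFB secretin against 0.12, 0.329 and 0.106 in dnTGFB. The libraries dnTGFB secretin 1 and 3 were nearest to WT 2 and WT secretin 1, and dnTGFB 1 and 2 were heart-muscle-rich. The part of these libraries in the order of Agr2 was not tested.

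Muc5b was nearly confined to a pair of female libraries. It measured 2.01, 0.0498 and 0.0712 CPM in dnTGFB secretin libraries, 0.0654, 0 and 0 CPM in dnTGFB, 0.0531, 0.0147 and 0.0227 CPM in WT secretin, and 0, 2.24 and 0.369 CPM in WT. The 2 values over 2 CPM, from 48 and 14 reads, belong to dnTGFB secretin library 1 and WT library 2. These squamous-rich libraries also had the highest Muc13 levels in females, at 7.49 and 7.68 CPM. Airway and lung markers, a possible companion of Muc5b, summed to 50.8 and 48.0 CPM there, within the 4.07 to 150 CPM of the other female libraries. Squamous markers summed to 3744 and 3775 CPM there and to at most 250.1 CPM in the other 10. Of the goblet genes, Clca1 was also highest there, at 10.8 and 10.4 CPM against at most 1.27 CPM elsewhere in females. Zg16 (29.7 and 31.2 CPM), Muc2 (3.56 and 3.84 CPM) and the sum of pancreatic acinar markers (1372 and 1398 CPM) were highest there too. Fcgbp, at 23.4 and 24.95 CPM, was not, with 42.05 CPM in dnTGFB library 3. The part of any of these in the Muc5b and Muc13 levels was not tested.

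**Figure D5:**
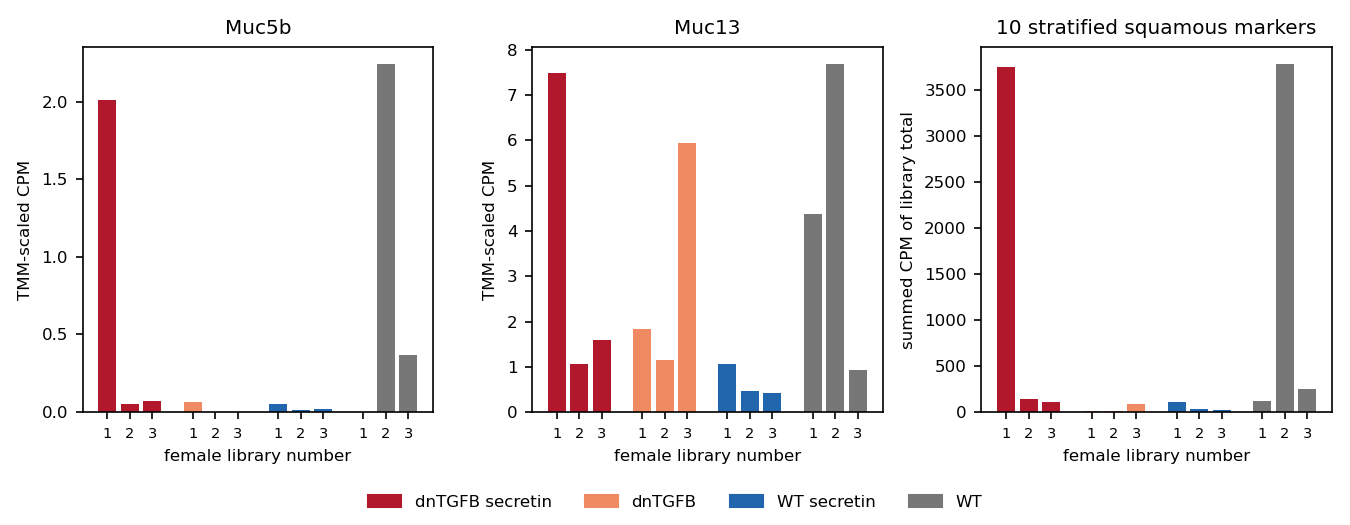
Muc5b and Muc13 (TMM-scaled CPM) and the sum of 10 stratified squamous markers (CPM of the library total) in the 12 female libraries, by group and library number. Muc5b reaches 2.01 and 2.24 CPM in dnTGFB secretin library 1 and WT library 2, the libraries with 3744 and 3775 CPM of squamous markers.

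The female interaction of secretin and genotype called Muc5b alone among the members, at 9.60 ± 2.80 on the log2 scale (SE; edgeR adjusted p = 0.0448), beside 18% of all genes (4.03% positive). The dnTGFB libraries held 4, 0 and 0 reads of Muc5b and the WT secretin libraries 1 each, so the size of this value depends on counts near 0. The near-identical libraries dnTGFB secretin 1 and WT 2 enter it with the same sign, so a single sample may count in both groups. The call was lost on leaving out any library except WT secretin library 1 (adjusted p 0.0504 to 0.124 in those 11 fits). Leaving out WT library 2 gave 7.46 and leaving out dnTGFB secretin library 1 gave 6.17.

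Differences between the sexes in the effect of genotype or secretin were tested over all 24 libraries, as the female minus the male change. No member was called, beside 7.75% of all genes for secretin in dnTGFB mice, 0% for secretin in WT mice and 6.86% for dnTGFB against WT. At an unadjusted p under 0.05, Muc1 and Gcnt3 passed for secretin in dnTGFB mice and Muc13 for secretin in WT mice. The share of all genes at this unadjusted threshold was not counted, and the shares above are for adjusted p, so they are no measure for these passes. DESeq2 called 1 member, for secretin in dnTGFB mice, beside 12.9% of all genes. Muc1 differed there by -3.24 ± 1.18 (SE; edgeR adjusted p = 0.09). Without the stand-apart libraries of both sexes, 6 members were called for secretin in dnTGFB mice, 5 of them with the lower change in females, beside 22.3% of all genes, and 4 for dnTGFB against WT, beside 22.8%. That fit rests on 1 female library in the dnTGFB and WT secretin groups, which is assumed to vary like the others.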

How the data were processed

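RNA of captured cholangiocytes was sequenced in 24 libraries, and the authors deposited a whole-number read count per gene for each library. The sources used here name no aligner, counting tool or strand setting. Of 49315 identifiers, 49056 are in GENCODE M21 and 44772 have the same GRCm38 coordinates there, so symbols were taken from it. Groups were taken from the titles; in 12 libraries title and genotype label differ, and the titles match the design text.

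Counts were tested with edgeR 4.0.16 (R 4.3.3): TMM scaling, the group-wise low-count filter, a robust quasi-likelihood F test and Benjamini-Hochberg adjustment over 18777 genes in males, 19882 in females and 20222 for sex differences. Each sex was fitted by itself, with a mean for each of its 4 groups. SEs were derived from the fold change and the square root of its F statistic. Scripts were tested on simulated counts. Levels are TMM-scaled CPM, and TPM from gene lengths; marker sums are CPM of the library total. Counting intervals and the limit for a count of 0 (3 reads) cover counting error only. Libraries were compared by chi-square per gene after thinning to 1400000 counts. Alternatives included DESeq2 1.42.0, other scalings, no filter and leaving out libraries.

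The members and lists were chosen with earlier results of these data known, and the counts of mucus list genes therefore support nothing on their own. Named were all members, up to 3 called genes per list and comparison with the smallest adjusted p, Krt19, Epcam and Sox9, and the 3 protein-coding genes nearest in profile with a mean of at least 1 CPM; of these the text gives a part, chosen after the values were seen. One gene near Muc13 in profile is not reported here.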

Additional observations from a re-analysis of the deposited data

Results flagged for a closer look

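In males, the change with secretin differed between dnTGFB and WT mice for 4 genes, by a test of the difference itself. Secretin and age cannot be told apart in it, and each group is described as 1 pool of mice. The interaction was 3.02 for Muc1 (edgeR adjusted p = 0.000494), 3.46 for Tff2 (edgeR adjusted p = 3.81e-05), 4.3 for Gcnt3 (edgeR adjusted p = 0.00673) and 5.97 for Agr2 (edgeR adjusted p = 0.00516), on the log2 scale. In all 3 dnTGFB secretin libraries each of these genes was above its highest value in the 3 dnTGFB libraries, as were 22.8% of all genes. Scaled to the bile duct markers, Agr2 alone of the 4 was called (3.44, edgeR adjusted p = 0.0113), beside 86% of all genes called. Muc1 was at 0.31, Tff2 at 0.79 and Gcnt3 at 1.46 (edgeR adjusted p = 0.23, 0.055 and 0.142). Muc4, Muc13 and Muc20 were called negative on that scale.

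In females, the change with secretin differed between genotypes for Muc5b, with an interaction of 9.6 on the log2 scale (edgeR adjusted p = 0.0448). Its reads came mostly from dnTGFB secretin library 1 and WT library 2, which differed from each other by little more than repeat sequencing. Whether they are a single sample under both labels cannot be told apart from the files.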

How the results depend on the processing

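Over 9 genes, 13 comparisons and all alternatives, 1867 values were recomputed. Of these, 1757 kept their side of the threshold, 43 lost the call, 62 gained it and 5 reversed. A reversal is a change of sign with a call in at least 1 of the fits compared. The 1757 include 124 values that changed sign with no call in either fit. The reversed values were Muc4 (-1.42) and Muc13 (-2.1) in male dnTGFB secretin against dnTGFB and Muc4 (-1.7) and Muc13 (-1.91) in the male interaction, all scaled to the bile duct markers, and Tff3 (-1.36) in the male interaction without the stand-apart libraries. The larger moves in the counts of called members follow, with the share of all genes called in the same fit in brackets. Smaller moves are not all listed. Among them, the 4 in male dnTGFB secretin against dnTGFB became 6 with library totals (40.1%) and without the stand-apart libraries (46.6%). The 3 in male dnTGFB against WT became 2 with the replicate block (11.9%). The cause was not tested. For male WT secretin against WT the count of 1 (6.22%) became 0 with library totals (4.6%) and without the low-count filter (2.27%). It was also 0 with the replicate block (3.72%) and with bile duct scaling (3.73%). It became 2 with DESeq2 (13.3%), 5 without the stand-apart libraries (40.5%), and 0 to 1 on leaving out 1 library (1.69% to 5.53%). For male dnTGFB against WT the 3 (17%) became 0 with only the 6 libraries compared (0%) and 7 without the stand-apart libraries (47.4%). For male dnTGFB secretin against WT secretin the 4 (12.9%) became 7 under each of those settings (59.2% and 50.9%). For female WT secretin against WT the 0 (0%) became 1 with DESeq2 (13.2%). It became 3 without the near-identical pair WT secretin 1 and dnTGFB secretin 3 (17.9%), and 0 to 5 on leaving out 1 library (0% to 25.7%). For female dnTGFB secretin against WT secretin it became 0 to 4 on leaving out 1 library (0% to 24%). For the female interaction the 1 (18%) became 0 with library totals (0%), without the filter (6.6%) and with the replicate block (0%). It became 2 without the near-identical pair (34.9%), and 0 to 3 on leaving out 1 library (0% to 38.5%). Fits without the heart-muscle-rich or the stand-apart libraries leave 1 library in some female groups and are not counted here. For the sex difference of secretin in dnTGFB mice the 0 (7.75%) became 1 with DESeq2 (12.9%). For that of secretin in WT mice the 0 (0%) became 0 to 3 on leaving out 1 library (0% to 21.2%).

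Libraries share replicate numbers across groups, but the numbers did not pair them: same-numbered deviations correlated at -0.33 to 0.41. With the replicate block the Agr2 call in male dnTGFB against WT also missed the threshold (-2.65, edgeR adjusted p = 0.0623). All alternatives that leave out stand-apart, heart-muscle-rich or near-identical libraries, and the bile duct scaling, were chosen after seeing the data. Depth limits Muc5b in both sexes and Agr2 in male dnTGFB libraries, which held at most 3 reads of it.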
